A study of Homo sapiens with 6 samples.

Results

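Glycolysis and hypoxia response genes were examined after knockdown of EZH2 in 2 human lymphoma cell lines, KARPAS-422 and Pfeiffer, both derived from diffuse large B-cell lymphoma. The set holds 34 genes, fixed by name: 17 glycolytic enzymes, 4 transporters, 3 regulatory kinases, 3 genes of oxygen sensing and 7 genes known to be induced by low oxygen. Each gene was read from the brightest of the array probe sets annotated to that gene alone, which gave a value for 31 of the 34 genes. These are 31 of the 19775 genes with such a probe set. SLC16A1, SLC16A3 and CA9 were not analysed here. EGLN3 lay below the filter on low values, which left 30 of the 34 genes among the 12961 genes tested.

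The 4 groups were KARPAS-422 with a short hairpin RNA against EZH2 (shEZH2, 2 arrays), KARPAS-422 with a non-targeting hairpin (shNTC, 2 arrays), Pfeiffer with shEZH2 (1 array) and Pfeiffer with shNTC (1 array). All cells had been infected with lentivirus in medium that held serum at 10% and polybrene at 8 µg/ml, selected with puromycin at 1 µg/ml, and kept to day 10 of knockdown, per the labels. EZH2 is the methyltransferase of Polycomb repressive complex 2, which methylates histone H3 and keeps genes silent. Both lines are known to carry activating EZH2 mutations, which is background and not stated in the labels. Each arm rests on 1 hairpin sequence. The KARPAS-422 arrays are labelled biological replicates, but nothing says whether they came from separate infections, so each p-value reflects no more than the spread between these arrays, which may be technical. Oxygen and glucose were neither varied nor measured.

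Glycolysis splits glucose into pyruvate in the cytosol, and lactate dehydrogenase turns pyruvate into lactate when glycolysis outruns the mitochondria. When oxygen is low, prolyl hydroxylases stop marking the HIF-1 alpha protein for destruction, and HIF-1 then binds short DNA elements and induces many glycolytic genes together with genes of angiogenesis, mitophagy and chromatin. The level of HIF-1 alpha is set mainly at the protein, which an RNA array does not measure. Proliferating B cells and B-cell lymphomas are known for high glucose uptake.

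The core of the HIF binding element is ACGTG or GCGTG, and in the E-box CACGTG the ACGTG core overlaps the sites of MYC and related factors. In the RefSeq promoter table (GRCh38.p14), 29 of the 34 genes had an entry. The genes of the set were counted by their first entry, but the 35116 promoters are entries, of which a gene can have several, so the shares have unlike units. In the 250 bases before the start, on either strand, ACGTG occurred in 8 of 17 enzymes (47.1%), in 3 of 4 hypoxia-induced genes with an entry, and in 18.5% of 35116 promoters. These 3 genes include CA9, which was not analysed on the arrays. GCGTG occurred in 5 of 17 enzymes, in 2 of 4 hypoxia-induced genes with an entry, and in 32.2% of all promoters. CACGTG occurred in 3 of 17 enzymes, in 2 of these 4 genes and in 6.3% of all promoters. The enzyme that changed most with shEZH2 (GPI), an enzyme with several cores (LDHA), a gene bright in Pfeiffer and dim in KARPAS-422 (BNIP3) and the hypoxia-induced gene with the smallest adjusted p (KDM3A) are printed here, 5' to 3' on the gene's strand and ending at the base before the start. They lie at chr19:34364742-34364991 on the plus strand, chr11:18394313-18394562 on the plus strand, chr10:131981924-131982173 on the minus strand and chr2:86441121-86441370 on the plus strand. The start is that of the first promoter entry of each gene. For GPI and KDM3A it lies inside the RefSeq gene interval, which begins at 34359718 and 86437044, so these windows do not precede the outermost start. Capitals mark each ACGTG or GCGTG core, or its reverse complement (CACGT or CACGC).
GPI: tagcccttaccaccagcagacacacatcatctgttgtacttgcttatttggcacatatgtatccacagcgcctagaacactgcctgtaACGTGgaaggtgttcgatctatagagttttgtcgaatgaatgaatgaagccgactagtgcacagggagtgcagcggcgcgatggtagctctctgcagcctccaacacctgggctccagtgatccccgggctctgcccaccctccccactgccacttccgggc
LDHA: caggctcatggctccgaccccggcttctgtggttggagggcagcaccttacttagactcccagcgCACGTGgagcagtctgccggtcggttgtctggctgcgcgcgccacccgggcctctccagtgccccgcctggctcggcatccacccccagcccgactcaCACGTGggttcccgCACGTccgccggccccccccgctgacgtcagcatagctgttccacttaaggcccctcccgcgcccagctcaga
BNIP3: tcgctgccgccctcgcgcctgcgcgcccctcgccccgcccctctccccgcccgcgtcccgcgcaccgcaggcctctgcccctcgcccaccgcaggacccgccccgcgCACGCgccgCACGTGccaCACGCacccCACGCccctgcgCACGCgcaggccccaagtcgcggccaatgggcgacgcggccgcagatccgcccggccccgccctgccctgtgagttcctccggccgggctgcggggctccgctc
KDM3A: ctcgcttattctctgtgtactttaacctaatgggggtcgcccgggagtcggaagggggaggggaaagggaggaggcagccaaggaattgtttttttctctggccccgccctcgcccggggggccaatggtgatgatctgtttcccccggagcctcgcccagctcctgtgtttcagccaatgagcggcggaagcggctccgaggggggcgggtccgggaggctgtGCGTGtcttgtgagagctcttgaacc
GPI held 1 ACGTG core, 162 bases before the start used here. LDHA held 3, and BNIP3 held 1 beside 4 GCGTG cores. KDM3A held no ACGTG in this window and 1 GCGTG. A match of letters is a description and not evidence of binding.

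All values below are log2 MAS5 signals of single arrays, and a difference of 1 is a 2-fold change. Differences are shEZH2 minus shNTC unless the lines are compared, and adjusted p-values are limma's, corrected over all 12961 genes with a threshold of 0.05. EZH2 read 10.52 and 10.55 with shEZH2 in KARPAS-422, against 11.71 and 11.57 with shNTC, a difference of -1.11 (SE 0.10, adjusted p = 0.000744), and it read 1.41 lower in Pfeiffer. The B cell markers MS4A1 (13.6 to 14.1) and PAX5 (12.6 to 13.3) were bright on all 6 arrays, and the log2 of the summed signal of the 6 B cell markers measured was 15.39 and 15.39 with shEZH2 and 15.36 and 15.08 with shNTC in KARPAS-422, and 15.27 with shEZH2 and 15.24 with shNTC in Pfeiffer. CD79A and CD22 were far dimmer in Pfeiffer. The T and NK cell list (6 of 6 genes measured) summed to 10.68 and 10.77 with shEZH2 and 11.52 and 11.36 with shNTC in KARPAS-422, where it rested on CD3D, and to 13.63 with shEZH2 and 13.51 with shNTC in Pfeiffer, where it rested on CD8A. The 5 myeloid markers summed to between 6.99 and 7.96, with CD14 and LYZ near the bottom of the scale. The 6 fibroblast and epithelial markers summed to 13.66 and 13.49 with shEZH2 and 13.76 and 13.66 with shNTC in KARPAS-422, carried by DCN, and to 13.16 with shEZH2 and 13.49 with shNTC in Pfeiffer, carried by EPCAM. The part of these markers in the results below was not tested. In bulk RNA, fewer cells of a type and less RNA per cell cannot be told apart.

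Most glycolytic enzymes were lower with shEZH2 in KARPAS-422, while hypoxia-induced genes ran both ways. Of the 17 enzymes, 12 fell and 0 rose, all 17 differences were negative, and their median was -0.37. Of the 6 hypoxia-induced genes tested, 2 rose (BNIP3L and KDM3A) and 0 fell, 5 differences were positive, and the median was 0.49. Among all genes tested 12.4% were lower and 13.1% higher, with a median of -0.02. At an unadjusted p under 0.05, 14 enzymes were lower and 0 higher, and 3 hypoxia-induced genes were higher and 1 (VEGFA) lower. Of all 12961 genes, 2586 were lower and 2578 higher at that level. The enzyme count depended on how the arrays were scaled to each other, as set out after the single genes.

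**Figure D1:**
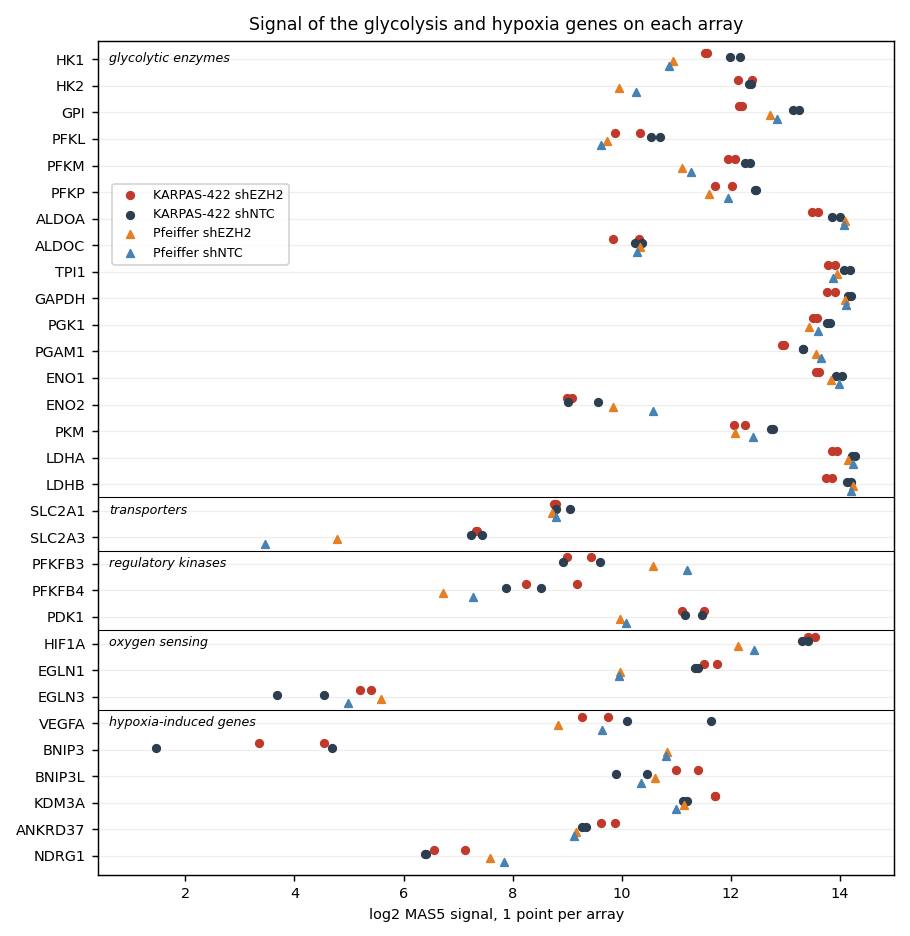
Log2 MAS5 signal (x axis) of the 31 genes with a probe set, 1 point per array, with shEZH2 above shNTC in each row, circles for KARPAS-422 and triangles for Pfeiffer. Most enzymes in the upper block have both KARPAS-422 shEZH2 points left of both shNTC points, GPI by the most, and BNIP3 lies between 1.47 and 4.69 in KARPAS-422 and near 10.8 in Pfeiffer. Positions compare arrays within a gene, not genes with each other.

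The first steps trap glucose in the cell and commit it to glycolysis. HK1, the broadly expressed hexokinase, read 11.56 and 11.52 with shEZH2 against 11.98 and 12.17 with shNTC in KARPAS-422, and 10.94 with shEZH2 against 10.86 with shNTC in Pfeiffer. The KARPAS-422 arms did not overlap, and the difference was -0.54 (SE 0.10, adjusted p = 0.00939). Arms of 2 arrays that do not overlap are common among all genes. By the stricter count that also needs Pfeiffer to run the same way, 20.6% of all genes were lower with shEZH2 and 22.0% higher. HK2, the inducible hexokinase and a known HIF target, read 12.39 and 12.13 with shEZH2 against 12.37 and 12.34 with shNTC in KARPAS-422, and 9.95 with shEZH2 against 10.25 with shNTC in Pfeiffer. Its KARPAS-422 arms overlapped (-0.09, SE 0.11, adjusted p = 0.574).

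GPI, which converts glucose 6-phosphate to fructose 6-phosphate, changed most. It read 12.16 and 12.20 with shEZH2 against 13.24 and 13.14 with shNTC in KARPAS-422, and 12.72 with shEZH2 against 12.85 with shNTC in Pfeiffer. In KARPAS-422 all shEZH2 values were about 1 unit below all shNTC values, whereas the Pfeiffer arrays were within 0.14 of each other. The KARPAS-422 difference was -1.01 (SE 0.08, adjusted p = 0.000391), which left 49.5% of the shNTC level. GPI passed the test in KARPAS-422 under each of the 15 alternative settings that could be run, with differences from -0.83 to -1.07. It had 1 single-gene probe set, of the kind whose probes can match several transcripts.

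Phosphofructokinase catalyses the committed step, and its 3 isoforms were all lower in mean in KARPAS-422. PFKP, the platelet isoform, read 12.03 and 11.72 with shEZH2 against 12.44 and 12.47 with shNTC in KARPAS-422, and 11.60 with shEZH2 against 11.94 with shNTC in Pfeiffer. The decline in KARPAS-422 was -0.58 (SE 0.11, adjusted p = 0.0113), where its arms did not overlap, and in Pfeiffer it read 0.34 lower with no replicate check. A second and far dimmer PFKP probe set, at a mean signal of 6.13, differed by -0.24 in KARPAS-422 and by 0.56 in Pfeiffer. PFKL, the liver isoform, read 10.34 and 9.88 with shEZH2 against 10.71 and 10.54 with shNTC in KARPAS-422 (-0.51, SE 0.17, adjusted p = 0.0641), and 9.72 with shEZH2 against 9.63 with shNTC in Pfeiffer. PFKM, the muscle isoform, read 12.08 and 11.95 with shEZH2 against 12.26 and 12.36 with shNTC in KARPAS-422 (-0.30, SE 0.09, adjusted p = 0.0553), and 11.11 with shEZH2 against 11.28 with shNTC in Pfeiffer. Neither PFKL nor PFKM passed the threshold. Their KARPAS-422 arms did not overlap, which is common among all genes, as given for HK1.

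Of the enzymes that split and interconvert the sugar phosphates, ALDOA and TPI1 fell in KARPAS-422. ALDOA, the main aldolase of most cells, read 13.60 and 13.49 with shEZH2 against 14.00 and 13.86 with shNTC in KARPAS-422 (-0.39, SE 0.08, adjusted p = 0.0127), and 14.10 with shEZH2 against 14.07 with shNTC in Pfeiffer. TPI1, triose phosphate isomerase, read 13.92 and 13.79 with shEZH2 against 14.18 and 14.07 with shNTC in KARPAS-422 (-0.27, SE 0.08, adjusted p = 0.0369), and 13.94 with shEZH2 against 13.87 with shNTC in Pfeiffer. Both were lower on both shEZH2 arrays of KARPAS-422 and slightly higher with shEZH2 in Pfeiffer. ALDOC, the brain aldolase, ranged from 9.84 to 10.37 over the 6 arrays and its KARPAS-422 arms overlapped (-0.23, SE 0.17, adjusted p = 0.345).

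GAPDH, often used as an internal standard, read 13.92 and 13.77 with shEZH2 against 14.20 and 14.14 with shNTC in KARPAS-422, and 14.09 with shEZH2 against 14.12 with shNTC in Pfeiffer. Its difference in KARPAS-422 was -0.33 (SE 0.07, adjusted p = 0.0182). PGK1, which makes the first ATP of the pathway, read 13.59 and 13.50 with shEZH2 against 13.82 and 13.76 with shNTC in KARPAS-422 (-0.25, SE 0.07, adjusted p = 0.0398), and 13.44 with shEZH2 against 13.60 with shNTC in Pfeiffer. The KARPAS-422 arms of GAPDH and of PGK1 did not overlap.

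The lower part of the pathway ran the same way in KARPAS-422. PGAM1, a phosphoglycerate mutase, read 12.94 and 12.97 with shEZH2 against 13.33 and 13.32 with shNTC in KARPAS-422 (-0.37, SE 0.07, adjusted p = 0.00896), and 13.56 with shEZH2 against 13.65 with shNTC in Pfeiffer. ENO1, the ubiquitous enolase, read 13.57 and 13.62 with shEZH2 against 14.05 and 13.92 with shNTC in KARPAS-422 (-0.39, SE 0.07, adjusted p = 0.00864), and 13.84 with shEZH2 against 13.98 with shNTC in Pfeiffer. The KARPAS-422 arms of PGAM1 and of ENO1 did not overlap. ENO2, the neuronal enolase, read 9.09 and 9.00 with shEZH2 against 9.02 and 9.56 with shNTC in KARPAS-422 (-0.25, SE 0.19, adjusted p = 0.378), and 9.84 with shEZH2 against 10.58 with shNTC in Pfeiffer. Its KARPAS-422 arms overlapped.

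PKM, the pyruvate kinase of proliferating cells, read 12.27 and 12.05 with shEZH2 against 12.77 and 12.73 with shNTC in KARPAS-422 (-0.59, SE 0.10, adjusted p = 0.00585), and 12.08 with shEZH2 against 12.40 with shNTC in Pfeiffer. Its KARPAS-422 arms did not overlap, but a second and far dimmer probe set differed by 0.20 in KARPAS-422, and the mean of both gave -0.19 (adjusted p = 0.309). LDHA, the lactate dehydrogenase subunit that HIF induces, read 13.95 and 13.85 with shEZH2 against 14.28 and 14.23 with shNTC in KARPAS-422 (-0.35, SE 0.07, adjusted p = 0.0103), and 14.15 with shEZH2 against 14.24 with shNTC in Pfeiffer. LDHB, the other subunit, read 13.85 and 13.75 with shEZH2 against 14.21 and 14.14 with shNTC in KARPAS-422 (-0.37, SE 0.07, adjusted p = 0.00905), and 14.23 with shEZH2 against 14.21 with shNTC in Pfeiffer. The subunits fell by similar amounts in KARPAS-422.

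**Figure D2:**
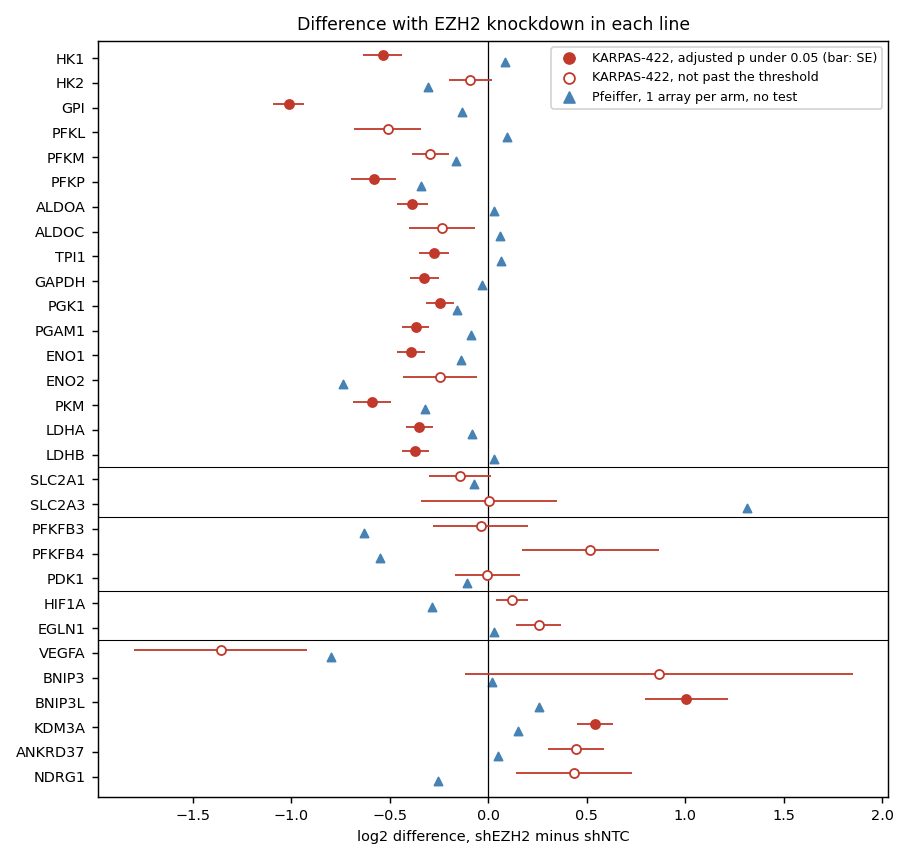
Log2 difference, shEZH2 minus shNTC (x axis), for the 30 genes tested, with circles for KARPAS-422 (filled where the adjusted p is under 0.05, bars are the SE of the limma fit) and triangles for Pfeiffer (1 array per arm, no test). The 17 enzymes at the top lie left of 0 in KARPAS-422, while BNIP3L at 1.01 and KDM3A at 0.54 lie right of it, and the Pfeiffer enzymes lie between -0.74 (ENO2) and 0.10 (PFKL).

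Of the transporters, regulatory kinases and oxygen-sensing genes, 0 of the 7 tested passed in KARPAS-422 by limma, and 0 had an unadjusted p under 0.05. SLC2A1, the basal glucose transporter (GLUT1), read 8.75 and 8.80 with shEZH2 against 9.05 and 8.79 with shNTC in KARPAS-422 (-0.15, SE 0.16, adjusted p = 0.537), and 8.73 with shEZH2 against 8.80 with shNTC in Pfeiffer. SLC2A3, the high-affinity transporter GLUT3, read 7.33 and 7.35 with shEZH2 against 7.44 and 7.23 with shNTC in KARPAS-422, and 4.77 with shEZH2 against 3.46 with shNTC in Pfeiffer. The transporters' KARPAS-422 arms overlapped, and the Pfeiffer values of SLC2A3 lay below the median of all deposited values (6.21).

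PFKFB3 and PFKFB4 set fructose 2,6-bisphosphate, the allosteric activator of phosphofructokinase, and PDK1 shuts pyruvate out of the mitochondria by phosphorylating pyruvate dehydrogenase. PFKFB3 read 9.00 and 9.44 with shEZH2 against 8.92 and 9.59 with shNTC in KARPAS-422, and 10.57 with shEZH2 against 11.20 with shNTC in Pfeiffer. PFKFB4 read 8.25 and 9.19 with shEZH2 against 7.88 and 8.52 with shNTC in KARPAS-422, and 6.72 with shEZH2 against 7.27 with shNTC in Pfeiffer. PDK1 read 11.11 and 11.52 with shEZH2 against 11.47 and 11.16 with shNTC in KARPAS-422, and 9.97 with shEZH2 against 10.08 with shNTC in Pfeiffer. All 3 had overlapping arms in KARPAS-422, where PFKFB4 differed by 0.52 (SE 0.35, adjusted p = 0.311).

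HIF1A encodes HIF-1 alpha, and EGLN1 and EGLN3 encode prolyl hydroxylases that mark it for destruction. HIF1A read 13.55 and 13.41 with shEZH2 against 13.41 and 13.31 with shNTC in KARPAS-422 (0.12, SE 0.08, adjusted p = 0.322), and 12.14 with shEZH2 against 12.42 with shNTC in Pfeiffer. Under quantile normalization its KARPAS-422 difference was 0.30 (adjusted p = 0.0151) and under cyclic loess normalization 0.34 (adjusted p = 0.0175), so its call depended on the scaling. EGLN1 read 11.50 and 11.74 with shEZH2 against 11.34 and 11.39 with shNTC in KARPAS-422 (0.26, SE 0.11, adjusted p = 0.139), and 9.97 with shEZH2 against 9.94 with shNTC in Pfeiffer. The other EGLN1 probe sets ran the other way in KARPAS-422, at -0.07, -0.05 and -0.21. EGLN3 was dim, between 3.67 and 5.60 over the 6 arrays, and was not tested.

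The genes known to be induced by low oxygen did not share a direction in KARPAS-422. BNIP3L, a mitophagy receptor of the outer mitochondrial membrane, read 10.99 and 11.40 with shEZH2 against 10.47 and 9.90 with shNTC in KARPAS-422, and 10.62 with shEZH2 against 10.36 with shNTC in Pfeiffer. The rise in KARPAS-422 was 1.01 (SE 0.21, adjusted p = 0.0136), and its second probe set differed by 0.34. KDM3A, a histone H3 lysine 9 demethylase, read 11.70 and 11.71 with shEZH2 against 11.20 and 11.12 with shNTC in KARPAS-422, and 11.15 with shEZH2 against 11.00 with shNTC in Pfeiffer. The rise in KARPAS-422 was 0.54 (SE 0.09, adjusted p = 0.00694), and the KARPAS-422 arms of both genes did not overlap. Both calls were lost without an shEZH2 array of KARPAS-422: BNIP3L gave 1.21 (adjusted p = 0.0518) without replicate 1 and 0.80 (adjusted p = 0.113) without replicate 2, and KDM3A gave 0.55 (adjusted p = 0.0516) without replicate 1 and 0.54 (adjusted p = 0.0538) without replicate 2.

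VEGFA, the angiogenic growth factor and a classic HIF target, moved the other way. It read 9.27 and 9.75 with shEZH2 against 11.65 and 10.10 with shNTC in KARPAS-422, and 8.84 with shEZH2 against 9.64 with shNTC in Pfeiffer. It was lower on every shEZH2 array than on every shNTC array of the same line, but the KARPAS-422 shNTC replicates were 1.55 apart, and the difference of -1.36 (SE 0.44) had an adjusted p of 0.0596. Its 4 probe sets differed by between -1.14 and -1.69 in KARPAS-422, but the size depended on the shNTC array: the difference was -0.59 (adjusted p = 0.0853) without shNTC replicate 1 and -2.13 (adjusted p = 0.000238) without shNTC replicate 2, each against a single shNTC array. Without an shEZH2 array it was -1.12 (adjusted p = 0.29) or -1.60 (adjusted p = 0.162). In Pfeiffer the probe sets ranged from -1.53 to 0.04.

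Of the other hypoxia-induced genes, ANKRD37, an ankyrin repeat protein and HIF target, ranged from 9.62 to 9.88 with shEZH2 and from 9.27 to 9.35 with shNTC in KARPAS-422 (0.45, SE 0.14, adjusted p = 0.0588). NDRG1, a stress-responsive gene, read 7.12 and 6.55 with shEZH2 against 6.39 and 6.41 with shNTC in KARPAS-422 (0.44, SE 0.29, adjusted p = 0.313), and 7.59 with shEZH2 against 7.85 with shNTC in Pfeiffer. Neither gene passed the threshold. BNIP3, a mitophagy receptor related to BNIP3L, read 3.34 and 4.55 with shEZH2 against 4.69 and 1.47 with shNTC in KARPAS-422, and 10.84 with shEZH2 against 10.82 with shNTC in Pfeiffer. In KARPAS-422 all its values lay below the median of all deposited values, so neither the size nor the direction of its difference there is settled: 0.87 (SE 0.98, adjusted p = 0.557) over all arrays, 2.48 (adjusted p = 0.0184) without shNTC replicate 1, and -0.74 (adjusted p = 0.308) without shNTC replicate 2.

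In KARPAS-422 the bright genes as a whole were lower with shEZH2. Of the 1375 genes tested with a mean signal above 12, 42.6% were called lower and 5.24% higher, with a median difference of -0.23, and all 11 enzymes this bright were among those called lower. Above a mean of 13 the share called lower was 50.3% of 449 genes, with a median of -0.26, against a median of -0.36 over the 8 enzymes there. The arrays were scaled by the authors to 1 common mean, and other scalings moved the bright enzymes. Quantile normalization left 6 of 17 enzymes lower with a median of -0.20, cyclic loess normalization left 4 with a median of -0.13, and median centring gave 13 with a median of -0.43.

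The enzymes fell into groups by how they responded to the scaling. HK1, GPI, PFKP and PKM passed under all 3 other scalings. With cyclic loess, the differences of these 4 enzymes were -0.46, -0.83, -0.46 and -0.43. ALDOA and PGAM1 passed under quantile normalization and median centring. TPI1, GAPDH, PGK1, ENO1, LDHA and LDHB passed under median centring alone of the 3. TPI1 and PGK1 turned to 0.03 under cyclic loess, and GAPDH, LDHA and LDHB lay between -0.01 and -0.05. BNIP3L and KDM3A passed under all 3, with differences from 0.95 to 1.01 and from 0.48 to 0.60.

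**Figure D3:**
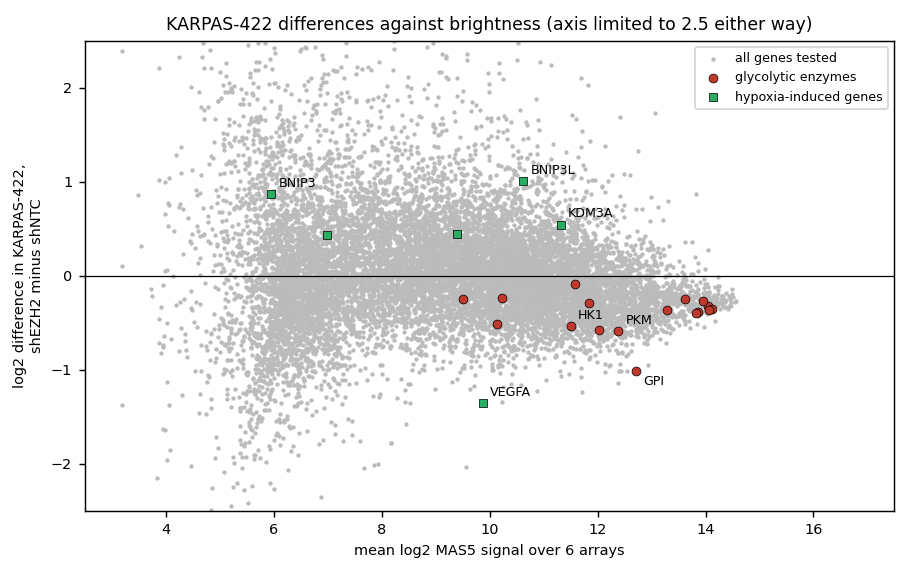
KARPAS-422 log2 difference, shEZH2 minus shNTC (y axis), against the mean log2 MAS5 signal over 6 arrays (x axis), with 1 grey point per gene tested, red circles for the 17 enzymes and green squares for the 6 hypoxia-induced genes. The grey cloud bends below 0 above a signal of 12, and the enzymes brighter than 13 lie within it. GPI lies lower, at -1.01, a depth also reached by ASNS, a gene outside the set (-1.015 at a mean signal of 12.4).

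**Figure D4:**
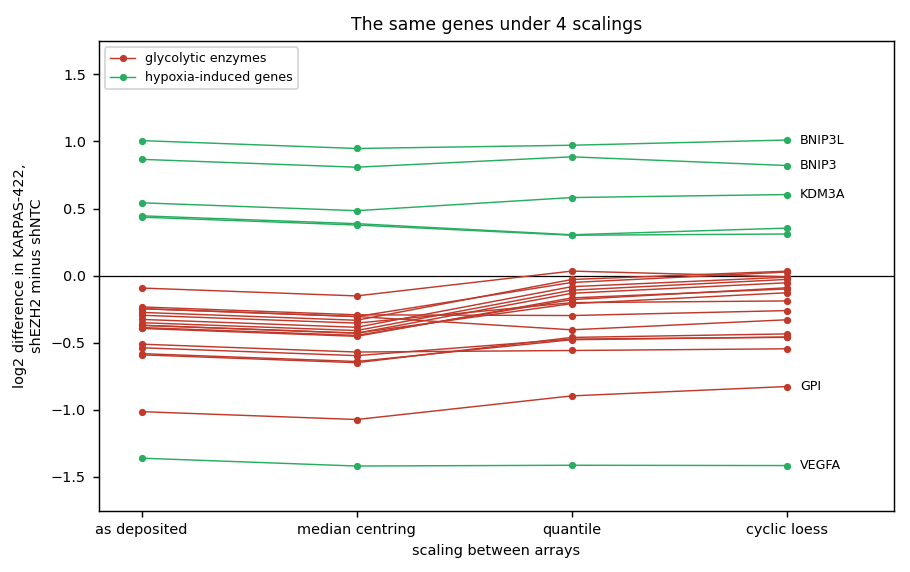
KARPAS-422 log2 difference, shEZH2 minus shNTC (y axis), of the same genes under 4 ways of scaling the arrays (x axis), with red lines for enzymes and green lines for hypoxia-induced genes. Most red lines move toward 0 under quantile and cyclic loess normalization. HK2 turns to 0.03 under quantile normalization, as TPI1 and PGK1 do under cyclic loess. GPI stays at -0.83 or lower, ENO2, ALDOC and PFKL move away from 0, and the green lines keep their side of 0.

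A fit without 1 KARPAS-422 array leaves 1 array in that arm, and its replicate spread comes from the other arm alone. Leaving out 1 KARPAS-422 array also changed the enzyme count. It was 5 without shNTC replicate 1, 8 without shEZH2 replicate 1, 9 without shNTC replicate 2 and 3 without shEZH2 replicate 2. GPI and PKM passed in all 4 cases. PGAM1 was lost without shEZH2 replicate 1 (-0.35, adjusted p = 0.0543), PFKP without shEZH2 replicate 2 (-0.43, adjusted p = 0.0581), and HK1 without either shEZH2 array (-0.55 with adjusted p = 0.0601 and -0.52 with adjusted p = 0.0677). Without the intensity trend in the variance model only GPI passed among the enzymes, and no hypoxia-induced gene did. The ACTB 3' minus 5' control signal, a sign of RNA quality, was 0.138 and 0.175 with shEZH2 and 0.0593 and 0.0830 with shNTC in KARPAS-422, and 0.126 with shEZH2 and 0.109 with shNTC in Pfeiffer. The same measure for GAPDH overlapped between the KARPAS-422 arms, at -0.169 and -0.241 with shEZH2 and -0.182 and -0.158 with shNTC. In Pfeiffer it was -0.0999 with shEZH2 and -0.148 with shNTC. The part of RNA quality in the enzyme differences was not tested.

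Of 40 further glycolysis and pyruvate genes 30 were tested in KARPAS-422, and 1 rose and 6 fell, where 13.1% of all genes were higher and 12.4% lower. PDHA1 and PDHB, which encode the E1 subunits of pyruvate dehydrogenase, fell by 0.61 (SE 0.07, adjusted p = 0.00239) and by 0.54 (SE 0.08, adjusted p = 0.00493). PGAM5, a mitochondrial phosphatase and not a glycolytic enzyme despite its name, fell by 0.79 (SE 0.16, adjusted p = 0.014), and BSG, the chaperone of the lactate transporters, fell by 0.45 (SE 0.10, adjusted p = 0.0182). PDP1, the phosphatase that switches pyruvate dehydrogenase on, was the one that rose (0.57, SE 0.16, adjusted p = 0.0381), a call lost under each of the 3 other scalings (adjusted p = 0.107 quantile, 0.0531 median centring, 0.0781 cyclic loess). PDHA1, PDHB, PGAM5 and BSG passed under all 3, while PGM2 and DLD, which also fell, missed the threshold under quantile normalization (adjusted p = 0.0609 and 0.0708) and cyclic loess (adjusted p = 0.0818 and 0.182). Of the 6 that fell, PDHA1, PDHB and DLD had a mean signal above 12, where 42.6% of genes were called lower and 5.24% higher. MPC2 was also this bright and was not called.

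In the pentose phosphate pathway, which branches off at glucose 6-phosphate, 9 of 10 genes were tested, and 3 fell and 0 rose by limma, beside 12.4% and 13.1% of all genes. At an unadjusted p under 0.05 it was also 3 and 0, beside 2586 lower and 2578 higher of all 12961 genes. All 3 had a mean signal above 12, where 42.6% of genes were called lower and 5.24% higher. RPIA and PRPS1 were also this bright and were not called. TKT, transketolase, read 12.19 and 12.35 with shEZH2 against 13.28 and 13.16 with shNTC in KARPAS-422 (-0.95, SE 0.09, adjusted p = 0.000772), and 13.23 with shEZH2 against 13.36 with shNTC in Pfeiffer. PGD, which oxidises 6-phosphogluconate, read 11.90 and 12.07 with shEZH2 against 12.78 and 12.65 with shNTC in KARPAS-422 (-0.74, SE 0.09, adjusted p = 0.00266), and 12.87 with shEZH2 against 12.85 with shNTC in Pfeiffer. Both passed under all 3 other scalings. TALDO1, transaldolase, fell by 0.31 (SE 0.08, adjusted p = 0.0247), a call lost under quantile normalization (-0.17, adjusted p = 0.094) and cyclic loess (-0.13, adjusted p = 0.213).

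Of 40 further hypoxia genes 32 were tested in KARPAS-422, and 5 rose and 3 fell, shares near the 13.1% and 12.4% of all genes. P4HA2, a collagen prolyl hydroxylase, read 7.82 and 7.75 with shEZH2 against 5.02 and 3.35 with shNTC (3.60, SE 0.51, adjusted p = 0.00368), a difference of uncertain size because the shNTC values were dim. MIR210HG, the host transcript of the hypoxia-induced microRNA miR-210, rose by 2.17 (SE 0.43, adjusted p = 0.0114), and HMOX1, heme oxygenase, rose by 1.36 (SE 0.17, adjusted p = 0.00256). INSIG2 and WSB1 also rose, by 0.66 (adjusted p = 0.0217) and 0.51 (adjusted p = 0.0107), though INSIG2 missed the threshold under quantile normalization (adjusted p = 0.0679). FAM162A, a mitochondrial protein and HIF target, fell by 0.65 (SE 0.07, adjusted p = 0.0017), and PLIN2, a lipid droplet coat protein, fell by 0.42 (SE 0.10, adjusted p = 0.0246). MIF fell by 0.24 (SE 0.07, adjusted p = 0.0436) but lay at 0.00 under quantile normalization and 0.05 under cyclic loess.

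In Pfeiffer, with 1 array per arm and no test, the enzymes differed little in the median. The median difference was -0.09 with 11 negative and 6 positive, that of the hypoxia-induced genes was 0.03, and that of all genes tested was 0.03. Past 1 log2 unit, 1 of 30 genes was higher (SLC2A3) and 0 were lower, against 3.20% and 1.44% of all genes. Both Pfeiffer values of SLC2A3 lay below the filter level, and another of its probe sets differed by -0.03 there. Past 0.5 log2 units, 1 of 30 genes was higher (SLC2A3 at 1.31) and 4 were lower (VEGFA at -0.80, ENO2 at -0.74, PFKFB3 at -0.63 and PFKFB4 at -0.55), against 11.8% higher and 6.0% lower of all genes. These 5 genes are 16.7% of the set, beside 17.8% of all genes in either direction. Between the KARPAS-422 replicates of 1 arm, 10% of the set (shEZH2) and 20% (shNTC) were as far apart, beside 13.1% and 16.3% of all genes. The enzymes' median turned to -0.21 with all 17 negative under median centring. That scaling moved all genes of an array alike. It put the median of all genes at -0.09 (7950 negative, 5001 positive) and that of the hypoxia-induced genes at -0.08.

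The responses of the lines were compared directly as a difference of differences. Of the 30 genes, 1 passed: GPI was more negative in KARPAS-422 by 0.88 (SE 0.14, adjusted p = 0.0263), where 0.486% of all genes passed in that direction and 1.31% in the other. The comparison assumes that the lone Pfeiffer arrays vary as the KARPAS-422 ones do. No gene passed in the other direction. At an unadjusted p under 0.05, 6 enzymes were more negative in KARPAS-422, and 2 of the 30 genes were more positive, beside 1156 and 1115 of all 12961 genes. Outside the set, TKT (-0.82, SE 0.15, adjusted p = 0.0499) and FAM162A (-0.80, SE 0.13, adjusted p = 0.0294) passed, and PGD (-0.76, SE 0.16, adjusted p = 0.073) did not. Leaving out 1 KARPAS-422 shEZH2 array ended the GPI call (-0.85 and adjusted p = 0.158 without replicate 1, -0.90 and adjusted p = 0.137 without replicate 2). It also ended without a filter (adjusted p = 0.0661) and under median centring (-0.82, adjusted p = 0.0546). For the other 16 enzymes a difference between the lines was not shown.

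Fitted over both lines with a term for the line, GPI (-0.72, SE 0.17, adjusted p = 0.0486), PFKP (-0.50, SE 0.11, adjusted p = 0.0425) and PKM (-0.50, SE 0.10, adjusted p = 0.0372) fell with shEZH2, which is 3 of 30 genes against 2.47% of all genes. This fit assumes 1 response shared by the lines. GPI differed by -1.01 in KARPAS-422 and by -0.14 in Pfeiffer, so its -0.72 is a mean of unlike responses. By limma, 0 of the 30 rose, against 3.77% of all genes. At an unadjusted p under 0.05, 2 of the 30 (BNIP3L and KDM3A) were higher and 13 lower, beside 2044 and 1738 of all 12961 genes. All 3 calls were lost without any 1 of the 4 KARPAS-422 arrays, with adjusted p from 0.16 to 0.214 for GPI, 0.149 to 0.177 for PFKP and 0.139 to 0.181 for PKM. On a plain count, 9 of 17 enzymes were lower on every shEZH2 array than on every shNTC array of the same line and 0 were higher, while 1 of 6 hypoxia-induced genes was lower and 3 were higher. Among all genes 20.6% were lower and 22.0% higher by that count.

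The lines were then compared over both hairpins. With a term for the hairpin, 11 of the 30 genes were higher and 6 lower in KARPAS-422 than in Pfeiffer, against 23.5% and 26.5% of all genes tested. These counts include SLC2A3 (higher) and BNIP3 (lower), which each passed the filter only through the line where they are bright. The calls of SLC2A3 and BNIP3 are therefore no test of the lines and add to the counts by construction. In glycolysis, the upper enzymes HK1 (0.91, SE 0.15, adjusted p = 0.0014), HK2 (2.21, SE 0.11, adjusted p = 3.46e-06), PFKM (0.96, SE 0.10, adjusted p = 0.000101), PFKL (0.69, SE 0.19, adjusted p = 0.0161) and PFKP (0.39, SE 0.12, adjusted p = 0.0229) were higher in KARPAS-422. ENO2 (-1.05, SE 0.19, adjusted p = 0.00251), PGAM1 (-0.46, SE 0.09, adjusted p = 0.00338) and ALDOA (-0.35, SE 0.11, adjusted p = 0.0311) were lower there. ALDOA kept this call in only 7 of 15 alternative settings, with differences from -0.56 to -0.12. PFKP kept it in 11 of 16 (0.25 to 0.62) and PFKL in 14 of 15, while the other enzymes named here kept it in all. The HK2 difference came from its brightest probe set, and the other 2, at a signal near 8.6, differed by -0.07 and 0.16.

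Both oxygen-sensing genes tested were higher in KARPAS-422. HIF1A differed by 1.14 (SE 0.11, adjusted p = 9.69e-05) and EGLN1 by 1.54 (SE 0.12, adjusted p = 2.51e-05), and the 3 other EGLN1 probe sets gave 1.61 to 1.80. PFKFB4 (1.46, SE 0.36, adjusted p = 0.0101) and PDK1 (1.29, SE 0.15, adjusted p = 0.000228) were also higher in KARPAS-422. PFKFB3 was lower there (-1.64, SE 0.23, adjusted p = 0.000703), so the paired kinase genes PFKFB3 and PFKFB4 ran in opposite directions between the lines. SLC2A3 lay between 7.23 and 7.44 in KARPAS-422 and at 4.77 and 3.46 in Pfeiffer, and since it passed the filter through KARPAS-422 alone, this is a description with no test.

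The hypoxia-induced genes were split between the lines as well. BNIP3 read 10.84 and 10.82 in Pfeiffer and no more than 4.69 on any KARPAS-422 array, and its second probe set showed the same split. It passed the filter through Pfeiffer alone, and its KARPAS-422 values lie near the bottom of the scale, so its levels are given as a description with no test. Its relative BNIP3L did not pass (0.20, SE 0.23, adjusted p = 0.496). NDRG1 was lower in KARPAS-422 (-1.10, SE 0.29, adjusted p = 0.0139) and KDM3A higher (0.36, SE 0.12, adjusted p = 0.0326). The KDM3A call was lost between the shNTC arrays alone (0.16, adjusted p = 0.281). GPI did not differ in the fit over both hairpins (-0.10, adjusted p = 0.676), but between the shNTC arrays alone it was higher in KARPAS-422 (0.34, adjusted p = 0.0238).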

How the data were processed

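The platform was the Affymetrix HG-U133 Plus 2.0 array, 1 array per sample and 6 in all. Sample titles gave the groups and the replicate numbers. The deposited values are log2 signals from the authors' MAS5 step, per the submitters' processing notes, which give no version. The log base and target were not stated: on the linear scale each array had a 2% trimmed mean of 500, so they were taken as log2 signals of arrays scaled one by one. Neither detection calls nor scan dates were used here. Precision is limited by the number of arrays.

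Of 54675 probe sets, 41091 carried 1 gene symbol, 1801 several and 11721 none, in an annotation that can be old, and 41037 of the single-gene probe sets matched RefSeq (GRCh38.p14) by gene ID. The 62 control probe sets were left out. Each gene was read from its single-gene probe set with the highest mean, and kept where at least 2 of 6 arrays exceeded the median of all values (6.21).

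Differences were tested with limma 3.58.1 (R 4.3.3) by lmFit and eBayes (with an intensity trend, two-sided, Benjamini-Hochberg over all 12961 genes). A 4-group fit (2 residual and 5.29 prior degrees of freedom) gave the KARPAS-422 comparison and the difference between lines. A fit with terms for line and hairpin (3 residual and 4.71 prior degrees of freedom) gave the comparisons over both lines and between lines. The Pfeiffer arrays, 1 per arm, were assumed to vary like the KARPAS-422 ones. Scripts were tested on simulated data. Every gene of the set is named, and values on every array are given for those that passed any test and for SLC2A1, HK2, PFKP, LDHA, PDK1, HIF1A, VEGFA, BNIP3 and KDM3A. From the further lists up to 4 called genes per direction are named, by size of difference; WSB1 completes a count of 5, and PGM2 and DLD were added after their values were seen. The members and lists were chosen with earlier results of these data known. Alternatives covered scaling, filter, a constant (16 or 64) added to linear values, probe set choice, variance model, replicate block and leaving out arrays.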

Additional observations from a re-analysis of the deposited data

Results flagged for a closer look

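GPI responded differently to shEZH2 in the lines by the test of the difference itself: the KARPAS-422 response minus the Pfeiffer response was -0.88 log2 units (SE 0.14, limma adjusted p = 0.0263). The difference was -1.01 in KARPAS-422, with shEZH2 lower on 2 of 2 arrays, and -0.14 in Pfeiffer, from 1 array per arm. Over the alternative settings the value ranged from -0.74 to -0.93 with adjusted p from 0.0175 to 0.229, and 9 of 14 kept the call. No other gene of the 30 tested was singled out, and with at most 2 arrays in a group no array could be tested as an outlier.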

How the results depend on the processing

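The KARPAS-422 count of lower enzymes (12) became 6 under quantile normalization, 4 under cyclic loess, 6 with the mean of a gene's probe sets, 3 without probe sets whose ID ends in _x_at or _s_at (which leaves fewer enzymes measured) and 1 without the intensity trend, and lay between 3 and 9 when 1 array was left out. The count of higher hypoxia-induced genes (2) became 1 without those probe sets, 0 without the trend, and 0 to 3 with 1 array left out. The count of lower ones (0) became 1, VEGFA, with a filter on the mean (adjusted p = 0.0452), the mean of the probe sets (adjusted p = 0.0407) or the replicate block (adjusted p = 0.0429), and 0 to 1 with 1 array left out. TPI1 reversed to 0.033 and PGK1 to 0.027 under cyclic loess, and GPI between lines to 0.34 on shNTC arrays alone. Over both lines the count of lower genes (3) became 8 under median centring, 1 under cyclic loess, 0 without a filter, with the mean of the probe sets, without the trend or with the replicate block, and 0 to 0 with 1 array left out. The count for the difference between lines (1) became 0 under median centring, without a filter, without _x_at and _s_at probe sets or without the trend, 3 with the replicate block, and 0 to 1 with 1 array left out. Between lines, the enzymes higher in KARPAS-422 (5) became 8 under median centring and 3 without the trend, and lay between 4 and 5 with 1 array left out. The enzymes lower there (3) became 5 under cyclic loess and 1 without _x_at and _s_at probe sets, and all genes lower there (6) became 2 without those probe sets. In Pfeiffer the count past 0.5 higher (1) became 2 without a filter and 0 with 64 added to linear values, and the count lower (4) became 2 without _x_at and _s_at probe sets. Beyond the construction of a setting, the cause was not tested. Replicate numbers shared by the KARPAS-422 arms did not pair the arrays (r = 0.000958 between the arms' replicate differences across genes, which are not independent), so the replicate block is a check only. With 1 Pfeiffer array per arm, precision is lowest for dim genes such as BNIP3, SLC2A3 and EGLN3.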

Other observations

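Affymetrix control probe sets for GAPDH, which enter no test of a gene above, were lower with shEZH2 in KARPAS-422 by 0.28, 0.24 and 0.23 log2 units for the 3', 5' and middle probe sets, and differed by 0.09, 0.04 and 0.10 in Pfeiffer. As with the other values of Pfeiffer, 1 array per arm leaves these without a replicate check. EGLN3, left untested, read 5.40 and 5.20 with shEZH2 against 3.67 and 4.54 with shNTC in KARPAS-422, and 5.60 with shEZH2 against 4.98 with shNTC in Pfeiffer, but its other probe set read lower with shEZH2 in KARPAS-422 (-1.41).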
